A study of Mus musculus with 12 samples.

Results

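Quadriceps muscle of mice on a high-fat diet was compared with that of mice on normal chow. The comparison used 2 of the 12 RNA-seq libraries of the study, HFD-veh muscle and NCD-veh muscle, each a single library. Of the 22276 gene symbols with FPKM values (fragments per kilobase of exon, normalised to the mapped fragments of each library), 9587 reached an FPKM of at least 1 in either library. From these, 245 liver-enriched genes (a mean FPKM of 10 or more in liver, and 20-fold or more over the median of all 9 libraries from other organs) and 8 genes that lack a liver value were left out, and 9334 genes were compared. The measure was log2((HFD-veh FPKM + 0.1)/(NCD-veh FPKM + 0.1)), called the log2 ratio, which understates the difference of low genes.

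The study sequenced RNA of white fat (WAT), brown fat (BAT), liver and quadriceps muscle of male C57BL/6J mice kept from 8 to 17 weeks of age on normal chow (NCD) or on a diet high in fat (HFD). NCD-veh and HFD-veh mice both received vehicle (veh) by oral gavage from 10 weeks of age, so the diet is the difference that the labels give between them. HFD-ncls mice received the HFD and narciclasine (ncls), a plant alkaloid, on the same schedule. Their muscle library stands beside each gene below as another value from the same organ, although both diet and compound separate it from NCD-veh. Where 3 muscle values follow each other, their order is NCD-veh, HFD-veh and HFD-ncls. How many mice each library pools is not given in the sources used here. With 1 library per group there were no replicates, so no test, p-value or error between animals is given, and every difference is one between these libraries. Strain and sex were shared by all 12 libraries.

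Skeletal muscle burns glucose and fatty acids and switches between them with feeding and fasting. During fasting and fat overflow, nuclear receptors of the PPAR family raise genes of fatty acid use such as Pdk4, whose kinase closes the pyruvate dehydrogenase gate for glucose carbon. Fibres differ in their contractile isoforms, with slow oxidative fibres carrying the slow myosins and troponins and fast glycolytic fibres carrying the fast ones, and mouse quadriceps is mostly fast. Muscle also answers to the clock and, within minutes, to contraction, handling and stress through immediate-early genes such as Fos.

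The muscle label was borne out by its defining markers. Ckm, the muscle creatine kinase, was at 16456 FPKM on NCD, 16147 on HFD with vehicle and 15744 on HFD with ncls, and Acta1, the skeletal actin, at 24220, 22749 and 23146 FPKM. The other markers checked were all high in both diets: Mylpf, Tnnt3 and Tnni2 were at or above 8834 FPKM in HFD-veh muscle, and Des and Mb, which encode desmin and myoglobin, were at 1380 and 609 FPKM there. Myh4, which encodes the fastest myosin heavy chain, had no value in muscle. Approximate depths, from the size of the smallest FPKM steps, in units of 1000000 fragments were 24.3 for NCD-veh, 25.7 for HFD-veh and 25 for HFD-ncls muscle, and no interval rests on them.

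HFD-veh muscle held liver transcripts. Alb, the plasma albumin gene, was at 0.5 FPKM on NCD, 224 on HFD with vehicle and 0.329 on HFD with ncls, Apoa1 at 0.235, 54.4 and 0.137 FPKM, and Ttr, encoding transthyretin, at 0.108, 27 and 0.14 FPKM. Of 24 hepatocyte markers, 22 were among the genes left out, and the other two, Hp and Pck1, stayed in because WAT and BAT express them too. Among the 245 liver-enriched genes left out, 232 were higher in HFD-veh muscle, 190 of them over 2-fold. Members under 1 FPKM in NCD-veh, such as Apoa1 and Ttr, had reached 1 FPKM only in HFD-veh. They could be counted only as higher, so part of these counts was fixed in advance. Over all liver-enriched genes the median excess was 0.586% of the HFD-veh liver level. A gene with a moderate liver level can remain in the comparison, and its liver level is therefore given where it matters.

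Most of the 9334 genes were close between the diets. The median log2 ratio was 0.02, the quartiles of the genes lay at -0.15 and 0.18, and 88.7% of genes were within 1.4-fold. Over 2-fold, 105 genes were higher in HFD-veh muscle, which is 1.12% of the genes compared, and 92 were lower, which is 0.986%. These shares are the background for each gene list below. A gene under 1 FPKM in 1 of the libraries passed the filter only through the other, so the filter fixed its direction. Genes picked as past 2-fold have the order of the diet pair fixed by that pick. Such a pick also makes it likelier that HFD-ncls lies on the NCD-veh side of HFD-veh. By any size, 54% of genes were higher and 46% lower. With a pseudocount of 1 in place of 0.1, which shrinks the ratios of low genes, 43 and 40 genes were past 2-fold, and of the list members described below Agpat2, Elovl5, Per2, Cdkn1a, Socs3, Lgals3, Ccl9, Plin1, Retn, Chad, Rpl30 and Rps27 were no longer past it. The slow-twitch, fasting, immediate-early and myokine members past 2-fold all remained.

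**Figure D1:**
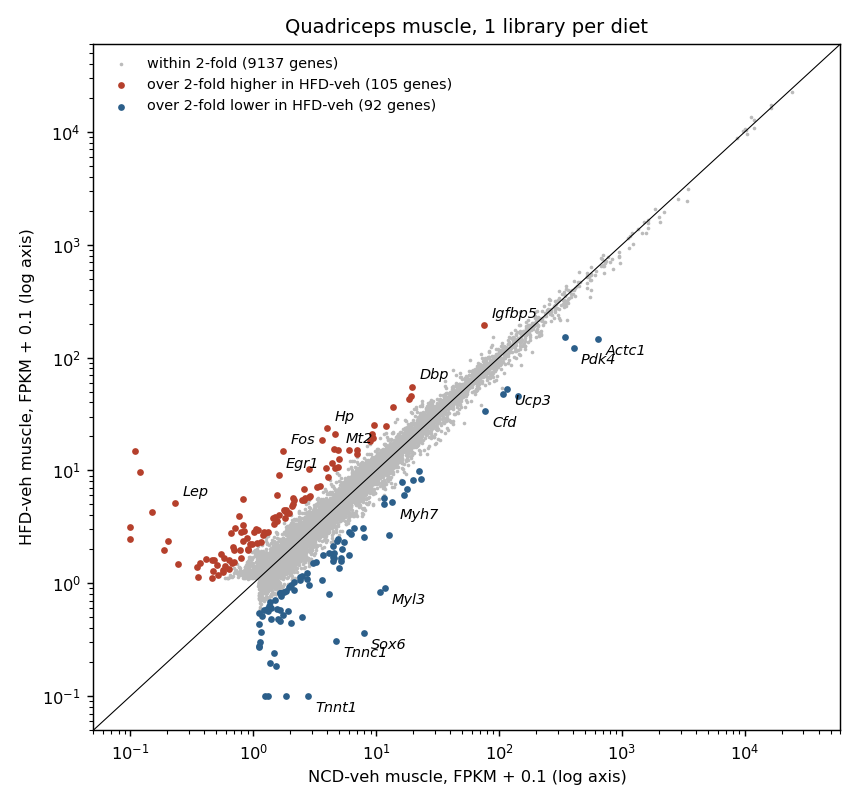
FPKM + 0.1 of the 9334 genes in NCD-veh muscle (x, log axis) against HFD-veh muscle (y, log axis), 1 library each, with the line of equal values. The 105 genes over 2-fold higher (red) and 92 over 2-fold lower (blue) in HFD-veh mostly lie under 100 FPKM, and the most abundant genes sit on the line.

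At the edges of the rule, Gm15455 entered at 1.00 FPKM and Syde1 stayed out at 0.999 FPKM. For the liver rule, Shmt1 was left out at 20.1 times the median of those organs and Aldh1l1 was kept at 19.6 times. At the 2-fold threshold, Dpt (log2 ratio 1.01) and Sgcd (-1.003) were just past it, and Hlf (0.9975) and Tm6sf1 (-0.9953) just short of it.

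The slow-twitch genes made the lowest group. Of 15 slow-twitch genes compared, 6 were over 2-fold lower, 0 were over 2-fold higher, and 12 were lower by any size, with a median log2 ratio of -0.70 against 0.02 over all genes. Myl3, the slow and ventricular essential light chain of myosin (chr9:110666150-110672308, NCBIM37), was at 11.7 FPKM on NCD, 0.807 on HFD with vehicle and 9.59 on HFD with ncls. Its partner Myl2, the slow regulatory light chain, was at 10.5, 0.735 and 16.2 FPKM. The 3 slow troponin genes Tnnc1, Tnni1 and Tnnt1, whose products make the filament sensitive to calcium, had HFD-veh values of 0.211, 0.084 and under 0.1 FPKM against 4.64, 1.42 and 2.69 in NCD-veh and 4.56, 2.18 and 3.29 in HFD-ncls muscle. Myh7, the slow myosin heavy chain (chr14:55589525-55613471), was at 13.4, 5.11 and 11.7 FPKM, a log2 ratio of -1.38. Myl2, Myl3 and the 3 slow troponin genes were under 1 FPKM in HFD-veh and passed the filter only through NCD-veh, so they could enter only as lower. In all 6 genes past 2-fold, HFD-ncls also lay above HFD-veh, while NCD-veh lay above it by the pick. These genes were lowly expressed even in NCD-veh muscle, with about 81.3 fragments for Tnnc1 and about 267 for Myl3 by the approximate depth.

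The slow-twitch list was not lower throughout. Csrp3, a Z-disc protein, had a log2 ratio of -0.92, Ankrd2, a stretch-responsive ankyrin repeat protein, -0.70, and Myoz2, a calcineurin-binding Z-disc protein, -0.66. The calcium pump gene Atp2a2 was at -0.58 and myoglobin (Mb) at -0.46. By contrast Tpm3, the slow tropomyosin, Casq2, the cardiac and slow calsequestrin, and Pln, the inhibitor of the Atp2a2 pump, had ratios of 0.11, 0.36 and 0.19. The members past 2-fold were thus filament proteins, and none of the 3 higher members was past it.

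Sox6 had the second lowest log2 ratio of all genes compared. It encodes a transcription factor known for repressing slow-fibre genes in fast muscle, and lies at chr7:122614858-123182258 in NCBIM37. Its level was 7.88 FPKM on NCD, 0.265 on HFD with vehicle and 6.36 on HFD with ncls, a log2 ratio of -4.45. Sox6 was low in the same library in which the slow filament genes were low. About 1576 fragments in NCD-veh and 55.9 in HFD-veh muscle stood behind these values.

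The fast-twitch genes were at nearly the same level in both diets. Of 13 compared, 0 were over 2-fold in either direction and 8 were higher by any size, with a median log2 ratio of 0.03. Tnnt3, the fast troponin T, was at 16428 FPKM on NCD, 17272 on HFD with vehicle and 15800 on HFD with ncls, and Atp2a1, the fast calcium pump, at 9660, 10082 and 10618 FPKM. The lowest ratio in the list was that of Myh1, the IIx myosin heavy chain, at 957, 683 and 936 FPKM and a log2 ratio of -0.49, followed by Myh2, the IIa chain, at -0.18. Tpm1 had the highest ratio, 0.25. Since the fast transcripts summed to 96629 FPKM in NCD-veh and 100357 in HFD-veh muscle, and the slow list to 952 and 665, mostly myoglobin, the slow genes were a small part of both libraries. In bulk muscle, fewer fibres of a type and less of their RNA per fibre cannot be told apart.

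Among 13 cardiac, embryonic and stress-induced sarcomere genes, 1 was over 2-fold lower and 0 over 2-fold higher. This was Actc1, the cardiac alpha-actin that adult skeletal muscle keeps at a low level (chr2:113873018-113879284), at 642 FPKM on NCD, 146 on HFD with vehicle and 407 on HFD with ncls and a log2 ratio of -2.13. Actn2, the alpha-actinin of all fibre types, was at -0.82, and the embryonic and perinatal myosins Myh3 and Myh8 were at -0.28 and -0.05. Higher values in HFD-veh muscle, short of 2-fold, were found for Xirp1 (0.93), an actin-binding protein of injured and loaded fibres, and Mybph (0.77), a myosin-binding protein. The 12 myogenic regulators and acetylcholine receptor genes compared had a median of -0.02 with none past 2-fold, among them Myod1 at 0.42, Myog at 0.34 and Mef2a at -0.66.

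**Figure D2:**
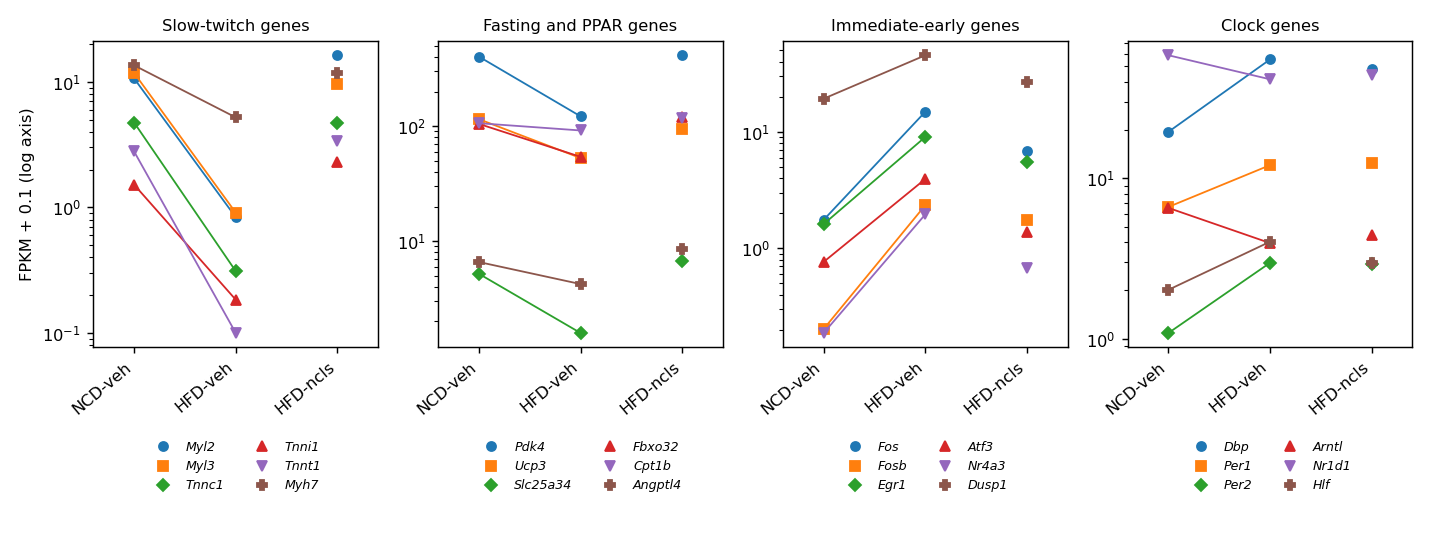
FPKM + 0.1 (y, log axis) of 6 genes in each of 4 groups in the 3 muscle libraries, 1 point per library, with lines joining the diet pair. The 6 slow-twitch genes are lowest in HFD-veh, the 6 immediate-early genes are higher there, and for Pdk4, Ucp3 and Fbxo32 HFD-ncls lies nearer to NCD-veh than HFD-veh does.

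Genes raised in muscle by fasting and by PPAR activity were lower in HFD-veh muscle. Of 13 compared, 3 were over 2-fold lower, 0 over 2-fold higher and 10 lower by any size, with a median log2 ratio of -0.56. Pdk4, the pyruvate dehydrogenase kinase of fasting (chr6:5433351-5446309), was at 404 FPKM on NCD, 122 on HFD with vehicle and 415 on HFD with ncls, a log2 ratio of -1.73. Ucp3, a mitochondrial carrier that follows fatty acid supply (chr7:107621499-107634941), was at 115, 52.7 and 95.2 FPKM. Slc25a34, a mitochondrial carrier of the same family, was at 5.09, 1.48 and 6.59 FPKM. In each of the 3 genes past 2-fold HFD-ncls also lay above HFD-veh, while NCD-veh lay above it by the pick.

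Other members of this list pointed both ways. Plin5, a lipid droplet protein of oxidative tissues, was at -0.76, Angptl4, an inhibitor of lipoprotein lipase, at -0.64, Pnpla2, the first lipase of triglyceride breakdown, at -0.60, and Fbp2, the muscle fructose bisphosphatase, at -0.56. Txnip, which restrains glucose uptake, was at 210.2 FPKM on NCD, 154 on HFD with vehicle and 197 on HFD with ncls. The higher members were Plin2, the common lipid droplet coat protein, at 8.33, 13.8 and 12.5 FPKM, Ech1 (0.17) and Ucp2 (0.11). Pdpr, the regulatory subunit of the phosphatase that opposes the Pdk kinases, was outside the list and among the 15 lowest genes, at 12.5, 2.55 and 13 FPKM. Pfkfb3, whose product makes the activator of phosphofructokinase, was also among the 15 lowest, at 143, 45.6 and 95.4 FPKM. Pdk4 and Pdpr, which act on the same complex, were both lower in HFD-veh muscle.

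The enzymes of fatty acid oxidation themselves were close between the diets. Of 29 genes of fatty acid uptake and beta-oxidation, 0 were past 2-fold, 21 were lower and the median was -0.04. The lowest ratio was that of Acot2, a mitochondrial thioesterase, at -0.74, Lpl, the lipoprotein lipase, -0.57, the fatty acid transporter Slc27a1 -0.56, Acsl1, which makes acyl-CoA, -0.49, and Acacb, which makes the malonyl-CoA that blocks carnitine palmitoyltransferase, -0.47. Cpt1b, that transferase, was at -0.21, and Acadl, Acadm and Hadhb were at 0.03, -0.01 and -0.01. The 80 nuclear genes of the respiratory chain and ATP synthase had a median of -0.05 and ran from -0.32 to 0.25, with 0 past 2-fold. The 11 oxidative regulators compared, with Ppargc1a at 0.11 and Esrrg at -0.57, also had 0 past 2-fold.

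Genes of glucose use were lower by small amounts. Of 23 genes of glucose uptake, glycolysis and glycogen, 19 were lower in HFD-veh muscle, 0 were past 2-fold and the median was -0.25. Slc2a4, the insulin-responsive transporter GLUT4, was at 179.7 FPKM on NCD, 143 on HFD with vehicle and 142 on HFD with ncls. Pgk1 and Eno3, which act late in glycolysis, were at log2 ratios of -0.72 and -0.47, Aldoa at -0.14 and Ldha at -0.07, while Ldhb, the oxidative lactate dehydrogenase subunit, was at -0.75. The highest was Ppp1r3c, which targets a phosphatase to glycogen, at 89.9, 153 and 47.7 FPKM and a log2 ratio of 0.77. For Slc2a4, Pgk1 and Eno3, HFD-ncls muscle was near HFD-veh, at 142, 249.6 and 2599 FPKM. The 19 genes of branched-chain amino acid catabolism had a median of -0.03 and 0 past 2-fold.

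Lipid synthesis genes were higher, in a library that also held liver transcripts. Of 14 genes of fatty acid and triglyceride synthesis, 3 were over 2-fold higher, 0 over 2-fold lower and 10 higher by any size, with a median of 0.57. Scd1, the stearoyl-CoA desaturase, was at 18.5 FPKM on NCD, 43.2 on HFD with vehicle and 22.7 on HFD with ncls, Elovl5, an elongase of polyunsaturated fatty acids, at 1.76, 4.38 and 2.24 FPKM, and Agpat2, which acylates lysophosphatidate, at 2.74, 5.75 and 3.64 FPKM. Dgat2, the last step of triglyceride synthesis, was at 0.95, Fasn at 0.84 and Acly at 0.78, while Gpam, the first acyltransferase, was at -0.74. The genes of this list are strongly expressed in fat and liver: in HFD-veh mice Scd1 was at 4356 FPKM in WAT and 1271 in liver, Agpat2 at 283 and 143, and Elovl5 at 38.9 and 249. What part such tissue has in these differences was not tested. With the estimated liver share subtracted from HFD-veh muscle, all 3 fell short of 2-fold, at log2 ratios of 0.95 for Scd1, 0.70 for Elovl5 and 0.82 for Agpat2, and the list's median was 0.38. The 9 genes of cholesterol synthesis and LDL uptake had a median of 0.38 with 0 past 2-fold, but the list's median was -0.14 over the 2 genes that reach 5 FPKM, Fdps and Fdft1.

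**Figure D3:**
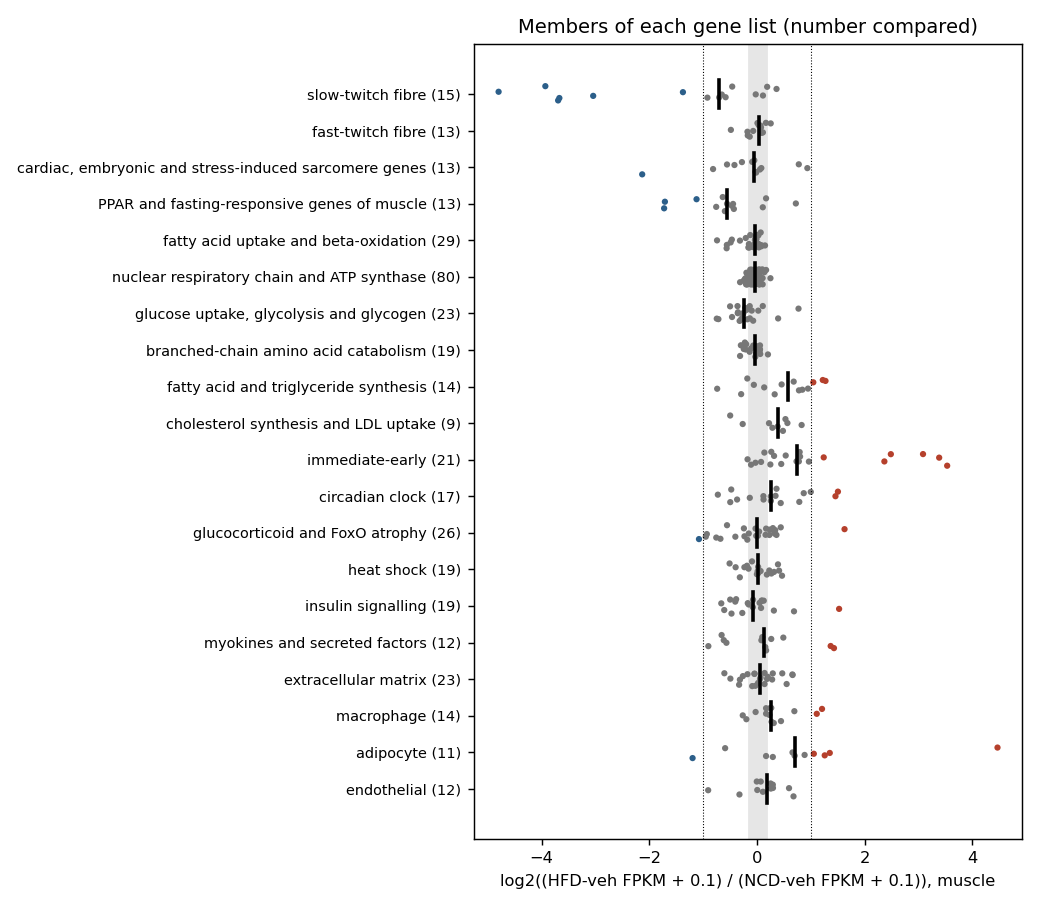
Log2 ratio (x) of each member of 20 gene lists in muscle, HFD-veh over NCD-veh, with the number compared in brackets, 1 point per gene, the list median as a black bar, dotted lines at 2-fold and the range between the quartiles of all 9334 genes in grey. The slow-twitch list has 6 members past the lower line and the immediate-early list 6 past the upper one, while the fast-twitch and respiratory chain lists lie around 0.

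Immediate-early genes were the list with the most members over 2-fold higher. Of 21 compared, 6 were over 2-fold higher, 0 over 2-fold lower and 18 higher by any size, with a median log2 ratio of 0.73. Fos, which pairs with Jun in the AP-1 transcription factor (chr12:86814840-86818223), was at 1.65 FPKM on NCD, 14.8 on HFD with vehicle and 6.73 on HFD with ncls, a log2 ratio of 3.08. Fosb, a close relative, was at 0.103, 2.25 and 1.64 FPKM, Egr1, a zinc-finger factor, at 1.51, 8.93 and 5.44 FPKM, and Atf3, a stress-induced bZIP factor, at 0.664, 3.83 and 1.29 FPKM. In these genes HFD-ncls lay between the diet pair. Nr4a3, an orphan nuclear receptor induced by exercise and cAMP, was at 0.0876, 1.86 and 0.572 FPKM, and Dusp1, the phosphatase that switches off MAP kinases (chr17:26642535-26645464), at 19.1, 45.2 and 26.5 FPKM. Fosb, Atf3 and Nr4a3 were under 1 FPKM in NCD-veh and passed the filter only through HFD-veh, so they could enter only as higher. Jun, the usual partner of Fos, was not higher, at 27, 25 and 19.7 FPKM. Zfp36 (0.96), Ier2 (0.80), Nr4a1 (0.79), Junb (0.78) and Btg2 (0.73) were higher without reaching 2-fold.

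The same pair of diets in the other organs, each again 1 library per group, gave Fos at 1.8 and 44.2 FPKM in BAT, 7.23 and 14.9 in WAT, and 0.145 and 3.04 in liver, NCD-veh before HFD-veh. Egr1 was at 5.65 and 47.8 in BAT and 1.89 and 47.5 in liver. Fosb was at 0.422 and 29.8 in BAT. Neither was past 2-fold in WAT, with log2 ratios of 0.52 for Egr1 and 0.18 for Fosb. Nr4a3 was at 0.03 (WAT) and -0.75 (BAT). In liver Fosb was at 0.0109 and 0.0685 FPKM, under the filter in both diets, and its ratio of 0.60 rests on the pseudocount. Fos was over 2-fold higher on the HFD in all 4 organs by the log2 ratio, with 1.03 (WAT), 4.54 (BAT) and 3.68 (liver). The labels give no time of tissue collection, and order of dissection or time of day cannot be told apart from diet here.

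Promoter sequence was examined for this list because its members were higher together. The cAMP response element (CRE), TGACGTCA, binds factors of the CREB and ATF family, and its core TGACG was searched as well, a choice made after the values were seen. Windows of the 250 bases before the RefSeq start (GRCm38.p6), both strands, were searched for 17 of the 21 genes, with no window for Egr1. TGACGTCA was found in 1 of the 5 promoters of genes over 2-fold higher (Dusp1) and in 1 of the other 12 (Btg2), against 1.55% of 32851 promoters. The core, in either orientation, TGACG or CGTCA, was in all 5 of the former and 5 of the latter, against 17.8% of promoters. Both background shares are over all promoters and were not matched for base composition, so enrichment was not tested. Stretches of 4 of these promoters that hold the core are shown, each 5' to 3' on the strand of the gene, with every TGACG or CGTCA (overlapping both in TGACGTCA) in capitals:
Fos, chr12:85473740-85473879, plus strand: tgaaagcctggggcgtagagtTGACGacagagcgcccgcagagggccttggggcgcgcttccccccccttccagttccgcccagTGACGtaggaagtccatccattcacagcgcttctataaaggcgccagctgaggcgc
Fosb, chr7:19310056-19310195, minus strand: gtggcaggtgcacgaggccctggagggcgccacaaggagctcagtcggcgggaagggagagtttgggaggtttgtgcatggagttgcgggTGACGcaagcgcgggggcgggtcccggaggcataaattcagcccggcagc
Dusp1, chr17:26508533-26508672, minus strand: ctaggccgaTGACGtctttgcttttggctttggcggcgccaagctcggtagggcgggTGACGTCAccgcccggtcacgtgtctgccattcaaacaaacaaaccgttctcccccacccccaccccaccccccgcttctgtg
Nr4a3, chr4:48045055-48045134, plus strand: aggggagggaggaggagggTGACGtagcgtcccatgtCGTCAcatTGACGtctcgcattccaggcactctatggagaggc
The stretches end 11 bases before the start for Fos and Fosb, 61 for Dusp1 and 171 for Nr4a3. A match describes letters in the window, and Btg2, which holds the full element, had a log2 ratio of 0.73.

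Dbp and the Per genes of the clock were higher, and Arntl and Clock lower. Of 17 clock genes, 2 were over 2-fold higher, 0 over 2-fold lower and 12 higher by any size, with a median of 0.26. Dbp, a PAR bZIP factor that the clock drives directly (chr7:52960458-52965525), was at 19.4 FPKM on NCD, 55.2 on HFD with vehicle and 48.2 on HFD with ncls, a log2 ratio of 1.5. Per2 and Per1, the repressors of the loop, were at 0.986, 2.88 and 2.81 FPKM, and at 6.54, 12 and 12.4 FPKM. Both HFD libraries lay above NCD-veh for these genes. Per2 was under 1 FPKM in NCD-veh and could enter only as higher. Arntl, which encodes the activator BMAL1, was at 6.45, 3.85 and 4.36 FPKM, Clock, its partner, at a log2 ratio of -0.48, and Nr1d1, encoding REV-ERB alpha, at 58.6, 41.4 and 43.9 FPKM. Hlf, a relative of Dbp, stood at the threshold with 1.92, 3.93 and 2.87 FPKM. In the other organs Dbp had log2 ratios of -1.29 (WAT), -0.33 (BAT) and 3.79 (liver), so the ratio in muscle had the same sign as in liver and the opposite sign to WAT and BAT.

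Glucocorticoid and FoxO genes, which include the ubiquitin ligases of muscle wasting, had a median log2 ratio of -0.00 over 26 members, with 13 higher and 13 lower. Fbxo32, the ligase atrogin-1, was at 105 FPKM on NCD, 54 on HFD with vehicle and 119.5 on HFD with ncls, while Trim63, encoding MuRF1, was at 112, 98.7 and 128 FPKM. Fkbp5, a chaperone that glucocorticoids induce, was at 11.5, 6 and 9.26 FPKM, and Tsc22d3 and Sgk1, also glucocorticoid targets, were higher, at log2 ratios of 0.34 and 0.36. The members past 2-fold were Mt2, a metallothionein, at 4.8, 15 and 7.28 FPKM, and Cdkn1a, the cell cycle inhibitor p21, at 6.49, 3.02 and 4.3 FPKM. Mt2 was at 584 FPKM in NCD-veh liver and 45.5 in HFD-veh liver. The 19 heat shock genes had a median of 0.02, and the 10 genes of the integrated stress and unfolded protein responses 0.10, with 0 past 2-fold in either list.

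Insulin signalling genes had 1 of 19 members past 2-fold, Socs3, which passed the filter only through HFD-veh and could enter only as higher. Socs3, a feedback inhibitor of cytokine receptors that also binds the insulin receptor pathway, was at 0.409 FPKM on NCD, 1.36 on HFD with vehicle and 1.68 on HFD with ncls, a log2 ratio of 1.52, which fell short of 2-fold with a pseudocount of 1. The Rab GTPase-activating proteins Tbc1d1 and Tbc1d4, which hold GLUT4 vesicles inside the cell, were at -0.67 and -0.61, Insr, the insulin receptor, at -0.50, Pik3r1 at -0.48, and Akt2 at -0.08. Irs1 was at 6.16, 5.83 and 9.99 FPKM. The list's median was -0.08, with 11 of 19 lower.

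Of 12 myokine and secreted factor genes, 2 were over 2-fold higher and 0 over 2-fold lower. Igfbp5, which binds insulin-like growth factors (chr1:72904506-72921458), was at 75.3 FPKM on NCD, 194 on HFD with vehicle and 84.3 on HFD with ncls, the most abundant gene over 2-fold higher, with about 10987 fragments in NCD-veh and 29948 in HFD-veh muscle. Ostn, encoding the muscle and bone peptide osteocrin, was at 2, 5.56 and 2.54 FPKM and was listed at 0 in WAT, BAT and liver of both diets. For both genes HFD-ncls was near NCD-veh. Fndc5, the precursor of irisin, was lower at 25.9, 13.8 and 18.4 FPKM, short of 2-fold, and Mstn, myostatin, was at a log2 ratio of 0.17.

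Markers of other cell types were examined because the higher genes included many fat genes. Of 11 adipocyte markers compared, 4 were over 2-fold higher and 1 over 2-fold lower, with a median of 0.70, and the list summed to 351, 399 and 390.1 FPKM in the 3 muscle libraries. Lep, encoding leptin (chr6:29010220-29023877), was at 0.133 FPKM on NCD, 5.04 on HFD with vehicle and 1.6 on HFD with ncls, and in WAT it was at 300.2 in NCD-veh and 1199 in HFD-veh. Plin1 and Cidec, lipid droplet proteins of adipocytes, were at 2.02, 4.97 and 3.36 FPKM, and at 5.89, 15.2 and 9.77 FPKM. Retn, encoding resistin, was at 9.24, 19.3 and 7.91 FPKM. Adipoq, encoding adiponectin, had a log2 ratio of 0.88, and Fabp4, the adipocyte and capillary fatty acid binding protein, 0.29. Cfd, encoding adipsin, went the other way, at 76.7, 33.4 and 43.9 FPKM, and in WAT it was at 8163 in NCD-veh and 653 in HFD-veh.

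By a wider rule of the same form as the liver rule (a mean FPKM of 10 or more in WAT, and 20-fold or more over the median of the 6 libraries of liver and muscle), 226 of the genes compared were fat-enriched. Of these 171 were higher in HFD-veh muscle, 31 over 2-fold, and 4 were over 2-fold lower, with a median log2 ratio of 0.31. They made 29.5% of the 105 higher and 4.35% of the 92 lower genes, and 2.42% of all compared. These shares depend in part on the filter, since fat-enriched genes are low in muscle by the rule, whose median includes both libraries compared. A member under 1 FPKM in NCD-veh, such as Lep (0.133 and 5.04 FPKM), passed only through HFD-veh and could enter only as higher. The median muscle level of fat-enriched genes was 2.43%, 2.45% and 2.7% of the WAT level of the same group, in the order NCD-veh, HFD-veh, HFD-ncls. Without the fat-enriched genes 74 genes were over 2-fold higher and 88 over 2-fold lower. The part of fat tissue in the muscle differences was not tested.

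A comparison with the levels in WAT and liver covered all genes. The reference was HFD-ncls muscle, which is not in the ratio. HFD-veh WAT was at least 10 times that reference for 65 of the 105 higher genes (61.9%), 9 of the 92 lower genes (9.78%) and 6.91% of all genes. HFD-veh liver was so for 31 of the higher and 2 of the lower genes, and for 2.96% of all. Hp, encoding the plasma protein haptoglobin (chr8:112099030-112103072), illustrates both: it was at 3.9 FPKM on NCD, 23.6 on HFD with vehicle and 5.27 on HFD with ncls, at 1707 in HFD-veh WAT and at 1601 in HFD-veh liver. Sncg and Nnat, at 1584 and 384 FPKM in HFD-veh WAT, were at 4.53, 20.9 and 11.6 FPKM, and at 3.54, 18.6 and 10.6 FPKM. Tmem45b was at 0.724, 5.49 and 2.02 FPKM and Cdo1, which oxidizes cysteine, at 2.72, 10.2 and 2.34 FPKM. The shares over all genes were not matched for muscle level, and genes low in muscle reach 10 times more easily. Some of them, such as Cd1d1 (0.314 in NCD-veh and 1.54 in HFD-veh), passed the filter only through HFD-veh and could enter only as higher. The reference library does not remove this selection.

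**Figure D4:**
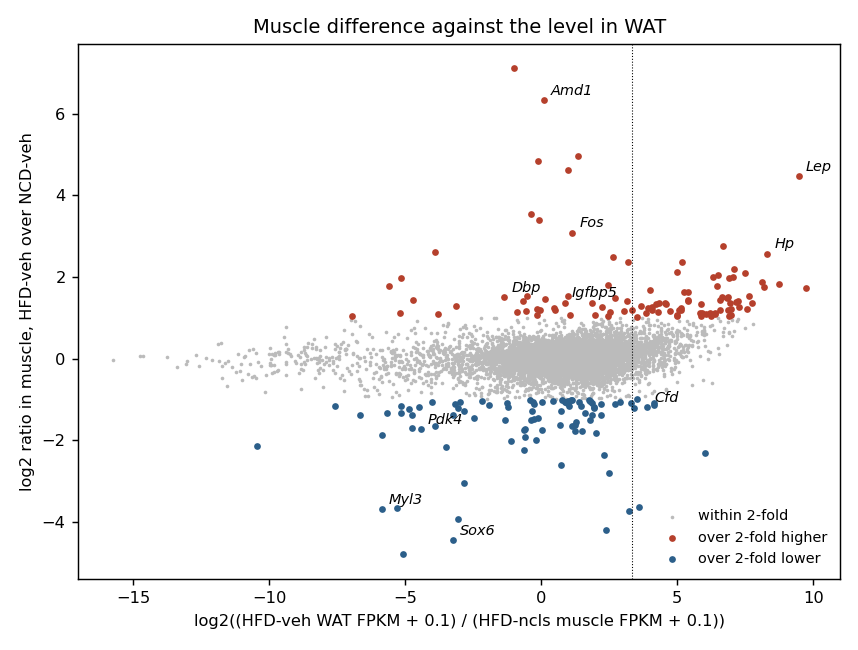
Log2 ratio in muscle, HFD-veh over NCD-veh (y), against the log2 ratio of HFD-veh WAT to HFD-ncls muscle (x), both with 0.1 added to FPKM, for the 9334 genes. To the right of the dotted line, where WAT is 10 times the muscle level or more, lie most of the genes over 2-fold higher (red), among them Lep and Hp, and few of those over 2-fold lower (blue).

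In 38 of the 105 higher genes neither WAT nor liver reached 10 times the HFD-ncls muscle level. Besides Igfbp5, Ostn, the 6 immediate-early genes, Dbp, Per2 and Socs3, they included Odf3l2, an outer dense fibre family member, at 4.47 FPKM on NCD, 15.5 on HFD with vehicle and 4.74 on HFD with ncls and listed at 0 in liver, Ip6k3, an inositol hexakisphosphate kinase of muscle, at 6.86, 15 and 9 FPKM, and the uncharacterised transcript B230312C02Rik at 1.45, 5.94 and 3.47 FPKM. Tceal7, an X-linked gene, was at 8.82, 18.2 and 12.4 FPKM. In Odf3l2, Ip6k3, B230312C02Rik and Tceal7 the HFD-ncls value was below HFD-veh.

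Several extreme ratios rest on values near 0 in one library and are uncertain. Of the higher genes, 6 were under 0.1 FPKM in NCD-veh muscle, namely Amd1, Beta-s, Farsb, Mea1, Nr4a3 and Pisd-ps1, and of the lower genes, 6 were under 0.1 FPKM in HFD-veh muscle, namely 1700029I15Rik, Flt3l, H2-Q8, Tnni1, Tnnt1 and Zbed6. Amd1, which encodes S-adenosylmethionine decarboxylase of polyamine synthesis (chr10:40007265-40021992), was at 0.0188 FPKM on NCD, 9.49 on HFD with vehicle and 0.0172 on HFD with ncls and under 0.1 in 11 of the 12 libraries, although a gene of this pathway is used in most cells. Beta-s, a beta-globin symbol, was at 0.00806, 14.8 and 14.3 FPKM, while Hbb-b1, a globin gene of nearly the same sequence, was at 77.2, 83.7 and 67.9 FPKM. Farsb, a subunit of the phenylalanyl-tRNA synthetase, was listed under 0.1 in 4 of 12 libraries, Mea1 in 3 and the pseudogene Pisd-ps1 in 9. H2-Q7 and H2-Q8 are near copies in the class I region, and their lower values, 2.39 to 0.401 and 1.75 to under 0.1 FPKM, cannot be assigned to one of them. The 2 ribosomal protein genes past 2-fold of 79 compared, Rpl30 (1.27) and Rps27 (-1.04), are low and have many processed copies, and the list's median was 0.06. Rps27, at 0.718 FPKM in HFD-veh, could enter only as lower.

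Immune and stromal lists had few members past 2-fold. Of 14 macrophage markers, 2 were over 2-fold higher, Lgals3 at 1.13 FPKM on NCD, 2.74 on HFD with vehicle and 2.18 on HFD with ncls and Ccl9 at 0.805, 1.85 and 1.11 FPKM, but 0 with a pseudocount of 1, and the list summed to 64.8, 78.6 and 102 FPKM in the 3 muscle libraries. Ccl9 was under 1 FPKM in NCD-veh and could enter only as higher. The defining markers Cd68 and Csf1r were at log2 ratios of 0.26 and -0.03, and Emr1 was under 1 FPKM in both diets. None of 15 lymphocyte markers was compared, 14 being under 1 FPKM in both diets and 1 not listed. All 5 MHC class II genes compared were higher, with a median of 0.31 and 0 past 2-fold, and the 12 interferon-stimulated genes had a median of 0.15, with Ifit3 highest at 0.98. Of 23 extracellular matrix genes 0 were past 2-fold, with Col1a1 at -0.50 and Sparc at 0.66. Endothelial markers had a median of 0.18 over 12 genes, and Cldn5, a tight junction protein, was lowest at -0.91. Among 6 tendon markers, Chad, a cartilage and tendon matrix protein, was over 2-fold lower at 2.64, 0.991 and 6.73 FPKM. Chad was under 1 FPKM in HFD-veh and could enter only as lower.

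The remaining lists were small or low. Of 12 lipid droplet and lipolysis genes, Cidec was over 2-fold higher and Plin3, a droplet coat protein, over 2-fold lower, at 11.4 FPKM on NCD, 4.99 on HFD with vehicle and 7.33 on HFD with ncls, and the median was 0.07. The 7 smooth muscle markers had a median of 0.02, with Acta2 at 0.74 and Tagln at 0.84. The 2 satellite cell markers compared had log2 ratios of -0.14 (Cdh15) and 0.06 (Chodl), and 4 of 15 proliferation genes reached 1 FPKM, with Mki67 and Top2a under it. The blood markers Hbb-b1 and Alas2 were at 0.12 and 0.70, and no pancreas, gut or kidney marker was compared. Sbsn was the 1 of 8 epidermal markers compared, at 0.971, 1.45 and 2.41 FPKM.

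Transcript length moved with the ratio. In 8 groups of genes by the longest annotated transcript (8721 genes with a length), the median log2 ratio went from 0.09 in the shortest group, up to 1293 bases, to -0.14 in the longest, over 5622 bases. HFD-ncls over NCD-veh muscle went from -0.03 to 0.12 over the same groups. For the same diet pair the medians of the shortest and longest groups were 0.03 and 0.01 in WAT, -0.09 and -0.00 in BAT, and 0.01 and 0.04 in liver, so BAT moved with length in the opposite direction to HFD-veh muscle. Of the 79 lower genes with a length, 23 were in the 2 longest groups, and of the 97 higher genes 10 were. In the 2 shortest groups there were 28 of the lower and 45 of the higher genes, the 8 groups being of nearly equal size. Sox6, Peg3 and Myh7 belong to the longest group, while the slow troponins and light chains are short. The part of length in these results was not tested, and with the group median subtracted 91 genes were over 2-fold higher and 88 lower, of which 88 and 76 were among the original ones.

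**Figure D5:**
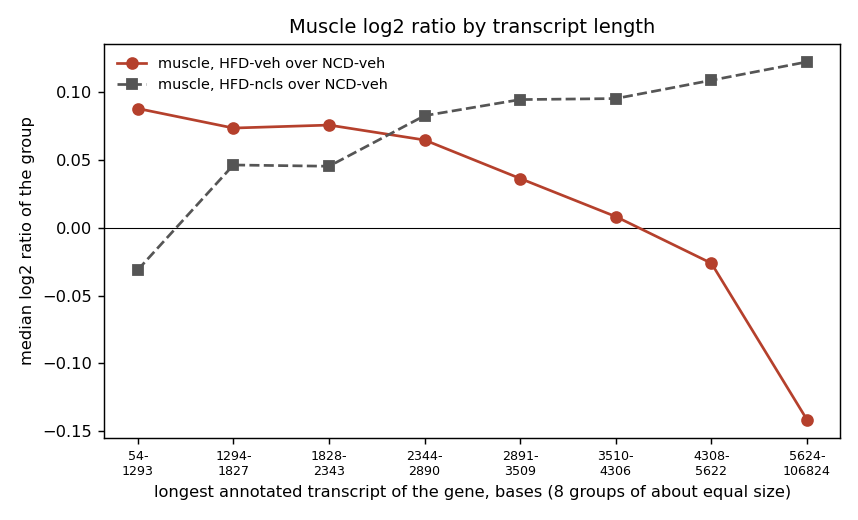
Median log2 ratio in muscle (y) of 8 groups of genes ordered by the longest annotated transcript in bases (x), for HFD-veh over NCD-veh (circles) and HFD-ncls over NCD-veh (squares), 1 library each. The HFD-veh line ends at -0.14 and the HFD-ncls line at 0.12 in the longest group.

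The other organs were compared by the same measure, and no library is shared between organs. Over 2-fold, 4.79% of genes were higher and 3.65% lower on the HFD in WAT, 2.21% and 1.85% in BAT, and 2.86% and 2.27% in liver. Liver-enriched genes were left out of WAT, BAT and muscle but not of liver. On that basis muscle had the lowest shares of the 4 organs. Without the removal in muscle, 301 genes (3.14%) were higher there, above the share of liver and above that of BAT, which still had the removal. Of the 105 genes higher in muscle, 15 were also over 2-fold higher in WAT (14.3% of the muscle list and 2.61% of the WAT list), 23 in BAT (21.9% and 10.1%) and 11 in liver (10.5% and 3.85%), while 5, 6 and 6 were over 2-fold lower there. In those organs 94, 88 and 67 of the 105 were compared. Of the 92 lower genes, 1 was also lower in WAT (1.09% and 0.228%), 5 in BAT (5.43% and 2.62%) and 5 in liver (5.43% and 2.20%), while 7, 4 and 5 were over 2-fold higher. Of the 92, only 59, 60 and 49 were compared in WAT, BAT and liver. Those shared with BAT on the higher side included Fos, Fosb, Egr1, Atf3, Dusp1, Lep, Lgals3 and Socs3. Actc1, Tnnt1 and H19 were lower in both muscle and BAT, where Actc1 was at 14.6 in NCD-veh and 0.401 in HFD-veh. BAT of NCD-veh mice held fast muscle transcripts too, with Mylpf at 315 FPKM against 71.6 in HFD-veh BAT. Liver differed in the other direction, with Mylpf at 0.354 FPKM on NCD and 6.14 on HFD with vehicle. Scd1 was over 2-fold higher in muscle and liver and over 2-fold lower in BAT, at log2 ratios of 1.22, 1.18 and -1.20.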

How the data were processed

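The 12 libraries, 1 for each of 4 organs in 3 groups, were assigned to their groups by sample title. Reads had been mapped to mm9 with TopHat by the authors, who used Cufflinks on RefSeq genes, and the deposited table gives FPKM for each gene symbol. No counts were used here, depth is known only approximately, and no further scaling between libraries is given in the sources used here. FPKM depends on the transcript model and on the other genes in a library, so a difference in a few abundant genes or in fragment length moves all others.

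Python 3.11.15, numpy 2.4.6, pandas 2.3.3 and matplotlib 3.10.9 were used. Log2 ratios used a pseudocount of 0.1, an FPKM of at least 1 in either library and the removal of liver-enriched genes. Past the fold means over 2-fold. No test was made with 1 library per group. The members and the 37 gene lists were chosen with earlier results of these data known, and some genes stand in more than 1 list. Genes named were the 15 highest and 15 lowest on log2(FPKM + 1), list members over 2-fold or among the 4 most abundant of a list, list members described by role, and genes at a threshold. Other genes, such as Ip6k3, Tceal7 and those of the closing observations, were picked after their values were seen. Gene positions are from GENCODE M1 (NCBIM37) and promoter sequence from RefSeq (GRCm38.p6). Approximate fragments are FPKM times the longest annotated transcript times the approximate depth. The scripts were tested on simulated data. Alternatives covered the pseudocount, the filter, the threshold, rescaling and the treatment of liver genes. Those on fat-enriched genes, values near 0 and transcript length were added after the data were seen. Some results are not reported here.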

Additional observations from a re-analysis of the deposited data

Results flagged for a closer look

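Genes named in the text that were over 2-fold in one direction in muscle and over 2-fold in the other direction in another organ were set apart. Each pair is 1 library per diet, and the difference between organs was not tested. Of the genes higher in HFD-veh muscle, Dbp had a log2 ratio of -1.29 in WAT, Farsb -4.03, Nnat -1.62 and Pck1, the enzyme of gluconeogenesis and glyceroneogenesis, -2.57. Pck1, also a hepatocyte marker, was at 4.89, 12.6 and 5.89 FPKM in the muscle libraries. With the estimated liver share subtracted from HFD-veh muscle, its muscle log2 ratio was 0.64, short of 2-fold. In BAT, Beta-s was at -1.35, Mea1 at -1.40, Mt2 at -1.55, Retn at -1.91, Scd1 at -1.20 and Tceal7 at -3.30. In liver, Beta-s was at -1.47, Hp at -1.43 and Mt2 at -3.68.

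Of the genes lower in HFD-veh muscle, Cdkn1a was at a log2 ratio of 2.98, 1700029I15Rik at 1.52 and H2-Q8 at 1.78 in WAT. In BAT, Slc25a34 was at 1.94 and Ucp3 at 1.64, so these carriers of the fasting list were higher on the HFD in BAT, Ucp3 going from 14.5 to 45.5 FPKM, and lower in muscle, and H2-Q7 was at 1.38. In liver, Aqp4, at 1.74 FPKM on the HFD, was at a log2 ratio of 1.81, Cfd was at 5.29, Pfkfb3 at 1.01 and Tnnc1 at 1.15. The HFD-veh liver library held muscle transcripts, however. Ckm was at 10.3 FPKM there, against 0 for NCD-veh liver and 0 for HFD-ncls liver. Tnnt3 stood at 10.2 FPKM, and was listed at 0 for those same libraries. Cfd, an adipocyte marker, went from 0.163 FPKM on NCD to 10.2 on HFD with vehicle. What part muscle or fat tissue has in these liver ratios was not tested. Beta-s, Farsb, Mea1 and H2-Q8 are among the symbols whose values jump to near 0 in some libraries.

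Data outside the comparison also held a signal. Of the liver-enriched genes left out by rule, 190 were over 2-fold higher in HFD-veh than in NCD-veh muscle. Members under 1 FPKM in NCD-veh could be counted only as higher. Apoa1, a member, was at 0.235, 54.4 and 0.137 FPKM in the muscle libraries. Alb, which was left out for lack of a liver value and is not in this count, was at 0.5, 224 and 0.329 FPKM.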

How the results depend on the processing

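No paired analysis was possible because each group had 1 library. The counts of genes over 2-fold higher and lower, 105 and 92, were 43 and 40 with a pseudocount of 1, 42 and 30 at an FPKM of at least 5, and 278 and 255 with no filter on FPKM, since many of these genes are low. Over 1.4-fold there were 530 and 524, and over 4-fold 21 and 18. Without the removal of liver genes 301 were higher, and the stricter removal gave 83 higher and the subtraction of the liver share 82. The other counts stayed within 1.5 times. Over 11 alternatives, 173 named genes kept their direction where they were past 2-fold, and 19 of 1817 values crossed the 2-fold threshold. Much of this was fixed in advance and is no measure of robustness. Settings that only add or drop genes leave the ratio of each remaining gene unchanged, and a change of pseudocount cannot turn its sign. Of 380 list medians, 349 moved by less than 0.1, and 3 turned: cholesterol synthesis to -0.14 at an FPKM of at least 5, and proliferation, at -0.37 over 4 genes, to 0.21 at an FPKM of at least 5 and 0.061 with no filter. Rescaling moved the median of all genes by under 0.1. Without replicates, no value here separates diet from differences between animals or dissections.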

Other observations

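The following genes were picked after their values were seen. They form no list, and nothing is drawn from them as a group. Peg3, a zinc-finger gene expressed from the paternal copy, was at 4 FPKM on NCD, 0.696 on HFD with vehicle and 3.13 on HFD with ncls, and its antisense partner Peg3as at 5.94, 1.67 and 6.2 FPKM. Reads of this pair cannot be told apart without strand. H19, a maternally expressed long non-coding RNA of growing muscle, was at 107, 47.6 and 69.3 FPKM. Mest, expressed from the paternal copy, was higher, at 0.442, 1.71 and 0.522 FPKM, and was at 526 FPKM in HFD-veh WAT.

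Aqp4, the water channel of fast fibres, was at 5.11 FPKM on NCD, 1.56 on HFD with vehicle and 1.42 on HFD with ncls. Igfn1, an immunoglobulin-repeat protein of muscle, was at 4.88, 1.26 and 5.66 FPKM, Myom3, an M-band protein of slow and intermediate fibres, at 2.37, 1.06 and 2.74 FPKM, and Sgcd, delta-sarcoglycan, at 4.8, 2.34 and 4.62 FPKM. For Aqp4 HFD-ncls muscle was near HFD-veh, whereas for Igfn1, Myom3 and Sgcd it was near NCD-veh.

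Smox, spermine oxidase of polyamine breakdown, was one of the more abundant lower genes, at 342 FPKM on NCD, 152 on HFD with vehicle and 159.6 on HFD with ncls, with both HFD libraries below NCD-veh. Hipk2, a nuclear kinase, was at 17.7, 6.8 and 14.6 FPKM.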
